A study of Mus musculus with 45 samples.

Results

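The Xin proteins and the scaffold of the Z-disc were followed through the developing, adult and pressure-loaded mouse heart as 10 genes named by symbol: Xirp1, Xirp2, Nrap, Flnc, Myot, Synpo2l, Ldb3, Actn2, Fblim1 and Des. All 10 were found among the 23284 genes listed for each library. The measurement was poly(A) RNA-seq of heart tissue, and every level below is log2(FPKM + 1). FPKM is fragments scaled to gene length and to the total of mapped reads, so that levels of different genes can be set side by side per length.

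The series profiles Gata4 binding, histone marks and RNA in developing and diseased heart. Of its 45 samples, 6 are RNA-seq libraries in 5 groups: adult heart with 2 libraries, and 1 library each for midgestation embryonic heart (E12.5), for a heart of the same stage under the label Gata4 KO, for banding and for sham. All are primary heart tissue, made from 2 µg of pooled RNA. In banding, surgery constricts an artery leaving the heart, which then pumps against a load, and a sham operation omits the constriction. The labels give neither the vessel nor the age of those animals, nor any strain. For the series as a whole the labels name the alleles Gata4fbio, Rosa26BirA, cTNTcre and Gata4flox, without saying which RNA library carried which. cTNTcre drives Cre recombinase from the cardiac troponin T promoter, that is in heart muscle cells, so a deletion made with it would leave other heart cells with their Gata4. No label states separate animals for the adult libraries, so p-values measure a spread that may be technical.

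The libraries held 12086929 to 21056784 mapped reads. Reads on listed genes made up 75.9% to 83.9% of them in the adult and E12.5 libraries, and 58.0% in banding and 55.6% in sham, where the ribosomal RNA precursor Rn45s stood at 12.96 and 12.94 against 6.21 to 8.94 elsewhere. FPKM divides by all mapped reads, those outside listed genes included, and the part of this in comparisons of sham with other hearts was not tested. Gata4 stood at 3.78 and 3.28 in adult, 5.93 at E12.5, 6.13 for the library labelled Gata4 KO, 2.38 after banding and 2.29 after sham, so it was not lower under the knockout label, and every direction drawn from that library rests on its label. All 8 heart muscle cell markers (Myh6, Tnnt2, Tnnc1, Actc1, Ryr2, Tnni3, Mybpc3, Myl3) were above 1 FPKM in every library.

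The Z-disc is the plate at which actin filaments of neighbouring sarcomeres are anchored and crosslinked, and at the cell's ends and sides the same machinery joins the intercalated disc and the costamere. Alpha-actinin crosslinks the actin filaments, a layer of adaptor proteins binds to it, filamin C links it to the membrane, and desmin filaments tie Z-discs to each other and to the rest of the cell. The Xin proteins carry actin-binding Xin repeats and lie at the intercalated disc, where the heart transmits force from cell to cell. Several of these genes are known to respond to mechanical load.

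The genes spanned a wide range of levels, and the most variable across libraries was Xirp2. Xirp2, a Xin repeat protein of the mouse intercalated disc, stood at 8.37 and 7.91 in adult, 0.46 at E12.5, 0.74 for the library labelled Gata4 KO, 8.69 after banding and 6.35 after sham. Both E12.5 libraries were near 0, with 94 and 144 reads, and the banded heart was above all others. Xirp1, the other Xin protein, stood at 5.63 and 5.30 in adult, 5.24 at E12.5, 4.97 for the library labelled Gata4 KO, 4.24 after banding and 3.26 after sham. As deposited, it varied over 2.37 log2 units where Xirp2 varied over 8.23, and its E12.5 level lay just under the adult ones. The balance of the paralogs within a library does not depend on scaling between libraries. Xirp2 had 6.78 and 6.22 times the FPKM of Xirp1 in adult, 23.1 times in banding and 9.37 times in sham. In E12.5 it was Xirp1 that led, at 98.4 times Xirp2, and at 44.9 times in the library labelled Gata4 KO.

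Nrap, an actinin- and actin-binding protein of the intercalated disc that takes part in myofibril assembly, stood at 7.48 and 7.12 in adult, 3.98 at E12.5, 3.25 for the library labelled Gata4 KO, 6.86 after banding and 6.01 after sham. All postnatal libraries lay above both embryonic ones. Actn2, the sarcomeric alpha-actinin, stood at 9.68 and 9.63 in adult, 8.64 at E12.5, 8.34 for the library labelled Gata4 KO, 7.99 after banding and 7.62 after sham. Ldb3, the PDZ and LIM domain adaptor also called Cypher or ZASP, stood at 6.86 and 6.65 in adult, 6.79 at E12.5, 6.55 for the library labelled Gata4 KO, 5.04 after banding and 5.11 after sham. As deposited, its E12.5 level fell between the adult ones, the library labelled Gata4 KO lay just under them, and the Ldb3 range of 1.81 was the smallest of the 10. This order and the rank of the range depend on the scaling. Myot, myotilin, which binds alpha-actinin and filamin, stood at 5.15 and 4.36 in adult, 0.18 at E12.5, 3.05 for the library labelled Gata4 KO, 2.44 after banding and 1.16 after sham. It rested on 6 reads in E12.5 and 33 in sham, against 958 and 531 in adult, and it was the lowest of the 10 in E12.5, banding and sham.

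Flnc, the muscle filamin that crosslinks actin, stood at 4.97 and 4.47 in adult, 5.81 at E12.5, 5.62 for the library labelled Gata4 KO, 4.79 after banding and 3.59 after sham. Synpo2l, a heart-enriched Z-disc protein of the synaptopodin family, stood at 6.01 and 5.43 in adult, 6.56 at E12.5, 6.49 for the library labelled Gata4 KO, 6.04 after banding and 4.01 after sham. As deposited, the embryonic libraries were the highest and sham the lowest for both genes. Scaling by median of ratios multiplied FPKM by 0.703 in E12.5 and 1.38 in banding. The order of banding and the embryonic libraries thus depends on the scaling. Fblim1, migfilin, which binds filamin and kindlin at adhesions, stood at 6.23 and 6.11 in adult, 3.89 at E12.5, 4.01 for the library labelled Gata4 KO, 3.26 after banding and 4.94 after sham. As deposited, its lowest level was in the banded heart, well under sham, whereas the adult libraries were its highest. After median-of-ratios scaling sham stood above E12.5 by 2.02 and banding differed from sham by -1.75, so E12.5 then lay under banding. Des, desmin, the intermediate filament protein of muscle, stood at 9.66 and 9.70 in adult, 8.28 at E12.5, 8.40 for the library labelled Gata4 KO, 10.56 after banding and 9.21 after sham. The banded heart held the highest level of any of the 10 genes in any library, and desmin ranked 17th among all listed genes there.

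**Figure D1:**
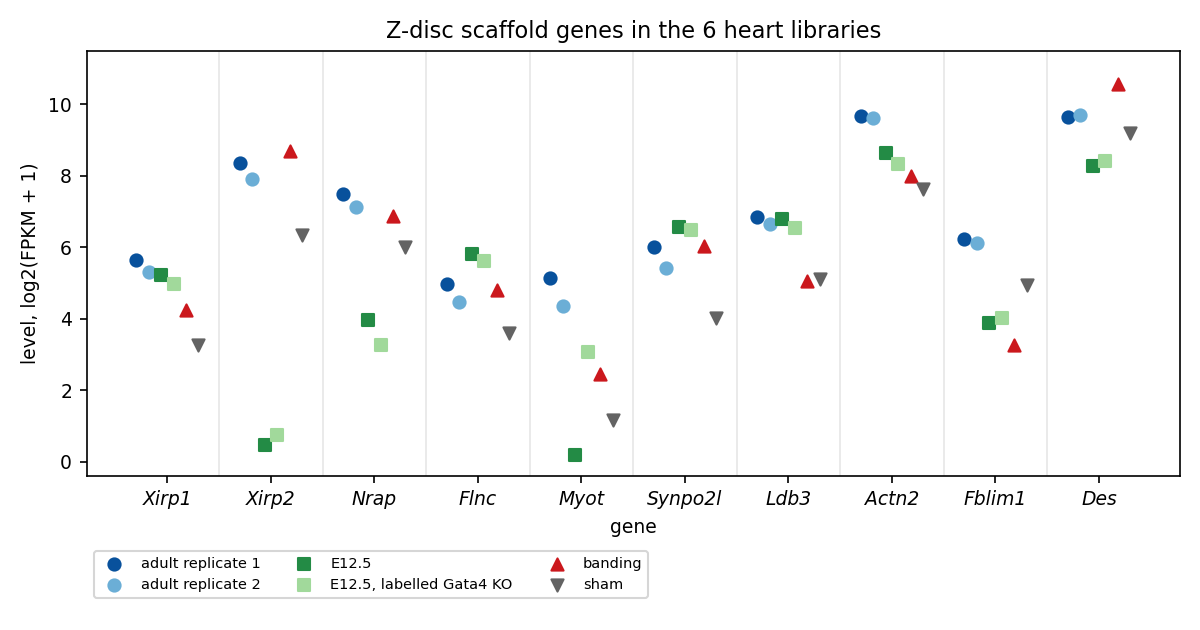
Levels of the 10 genes, as log2(FPKM + 1) on the vertical axis, with 1 point for each of the 6 libraries. As deposited, Xirp2 runs from 0.46 in E12.5 to 8.69 in banding, Ldb3 spans only 1.81, and Fblim1 is lowest in banding at 3.26.

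In adult heart the order of levels was set by desmin at 9.68 ± 0.03 and Actn2 at 9.66 ± 0.03 (SD, n = 2), which did not differ beyond their spread. Below them came Xirp2 at 8.14 ± 0.32, Nrap at 7.30 ± 0.25, Ldb3 at 6.75 ± 0.14 and Fblim1 at 6.17 ± 0.08 (SD, n = 2), each separated from the next by more than either spread. Synpo2l at 5.72 ± 0.41, Xirp1 at 5.47 ± 0.23, Myot at 4.75 ± 0.56 and Flnc at 4.72 ± 0.35 (SD, n = 2) followed, and the members of the pairs Synpo2l and Xirp1, and Myot and Flnc, did not differ beyond their spread. In E12.5 heart, with no spread to compare, Actn2 led desmin, and Ldb3, Synpo2l and Flnc came next, ahead of Xirp1, Nrap and Fblim1. In the banded heart Xirp2 stood second, above Actn2. The 10 genes together took 1.29% and 1.09% of the reads on listed genes in adult, 0.477% at E12.5, 0.422% for the library labelled Gata4 KO, 1.78% after banding and 0.654% after sham. Desmin alone made 61.7% of their summed FPKM in banding and 57.4% in sham, against 32.3% and 36.3% in adult and 30.1% in E12.5.

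Relative to Actn2 within the same library, which again removes the scaling between libraries, desmin stood at 0.985 and 1.05 times Actn2 in adult, 0.780 at E12.5, 1.04 for the library labelled Gata4 KO, 5.97 after banding and 3.01 after sham. Xirp2 stood at 0.402 and 0.302 times Actn2 in adult, 0.410 in sham and 1.63 in banding. Synpo2l stood at 0.0773 and 0.0531 in adult and 0.0770 in sham, against 0.256 in banding and 0.235 in E12.5. For Xirp2 and Synpo2l the sham heart thus lay within or next to the adult pair on this ratio, while for desmin it did not. Flnc was 0.0370 and 0.0266 times Actn2 in adult, 0.139 in E12.5, 0.106 in banding and 0.0563 in sham. Fblim1 stood at 0.0903 and 0.0859 in adult, 0.151 in sham, 0.0341 in banding and 0.0347 in E12.5.

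**Figure D2:**
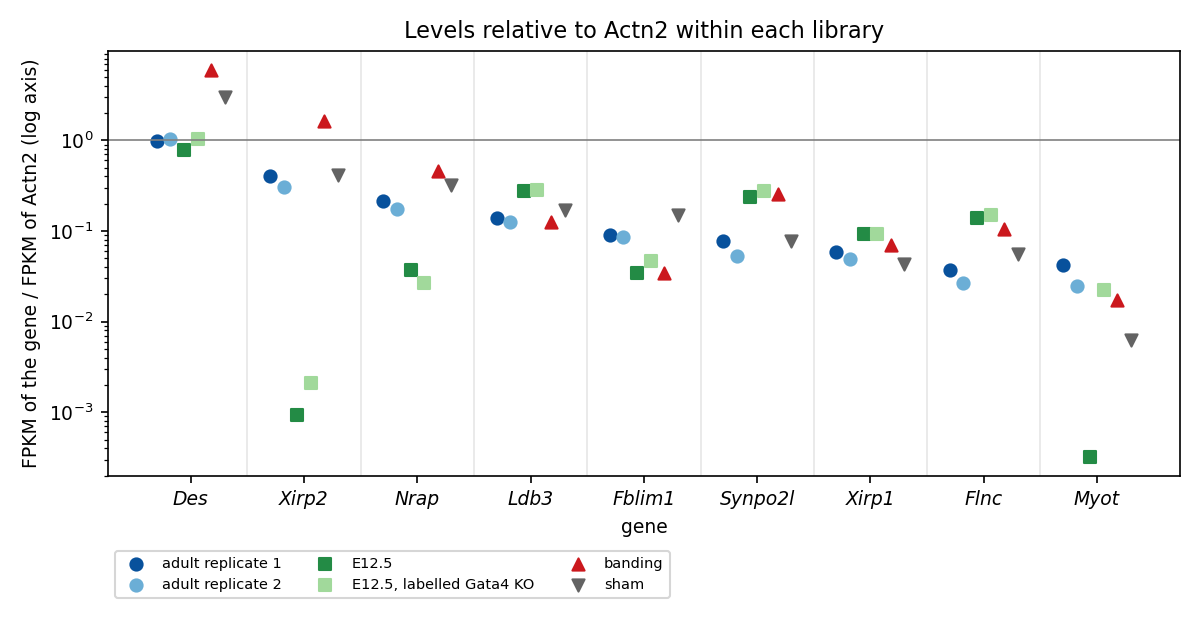
FPKM of 9 of the genes divided by the FPKM of Actn2 in the same library, on a log axis, with 1 point per library. Desmin lies at 5.97 in banding and 3.01 in sham against 0.985 and 1.05 in adult, and Xirp2 exceeds Actn2 in banding, at 1.63.

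Promoter windows from RefSeq (build GRCm38.p6, from 250 bases before to 50 after an annotated start) were used for 8 of the 10 genes, with 12 windows in all. They were searched on both strands for the GATA motif (AGATAA as well as AGATAG, counted together with the variants TGATAA as well as TGATAG), the MEF2 motif, the CArG box bound by SRF, the MCAT motif (GGAATG), the TATA box (TATAAA) and the E-box (CANNTG). The windows of Xirp2 and Synpo2l are shown because these genes had the largest banding to sham differences, that of Des because it was the most abundant in banding, and that of Ldb3 because its banding and sham levels lay close together. Matches other than E-boxes are in capitals, and no match shown overlaps another.
Xirp2, chr2:67445752-67446051, plus strand: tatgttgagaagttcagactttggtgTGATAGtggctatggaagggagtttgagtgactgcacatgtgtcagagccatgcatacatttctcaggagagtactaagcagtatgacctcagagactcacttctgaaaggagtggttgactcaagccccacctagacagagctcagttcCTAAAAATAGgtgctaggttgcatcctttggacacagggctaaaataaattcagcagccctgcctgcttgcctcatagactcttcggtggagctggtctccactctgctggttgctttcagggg
Synpo2l, chr14:20668305-20668604, minus strand: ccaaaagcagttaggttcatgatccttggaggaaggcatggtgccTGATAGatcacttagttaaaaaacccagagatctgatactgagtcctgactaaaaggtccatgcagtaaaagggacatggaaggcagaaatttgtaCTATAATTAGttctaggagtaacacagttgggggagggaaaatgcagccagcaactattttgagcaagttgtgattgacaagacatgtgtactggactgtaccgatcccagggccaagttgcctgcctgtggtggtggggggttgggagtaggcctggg
Synpo2l, second start, chr14:20664525-20664824, minus strand: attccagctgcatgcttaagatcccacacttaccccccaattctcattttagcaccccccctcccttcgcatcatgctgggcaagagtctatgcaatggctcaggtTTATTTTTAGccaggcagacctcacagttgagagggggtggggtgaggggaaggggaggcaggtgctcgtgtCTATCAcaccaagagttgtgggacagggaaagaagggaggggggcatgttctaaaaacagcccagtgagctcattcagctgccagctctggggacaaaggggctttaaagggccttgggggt
Des, chr1:75360042-75360341, plus strand: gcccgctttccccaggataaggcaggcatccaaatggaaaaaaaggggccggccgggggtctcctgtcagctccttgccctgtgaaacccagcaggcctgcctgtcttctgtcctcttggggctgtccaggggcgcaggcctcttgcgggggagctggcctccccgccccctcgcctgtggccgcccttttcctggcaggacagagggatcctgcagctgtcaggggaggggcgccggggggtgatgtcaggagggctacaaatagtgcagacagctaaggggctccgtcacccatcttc
Ldb3, chr14:34588632-34588931, minus strand: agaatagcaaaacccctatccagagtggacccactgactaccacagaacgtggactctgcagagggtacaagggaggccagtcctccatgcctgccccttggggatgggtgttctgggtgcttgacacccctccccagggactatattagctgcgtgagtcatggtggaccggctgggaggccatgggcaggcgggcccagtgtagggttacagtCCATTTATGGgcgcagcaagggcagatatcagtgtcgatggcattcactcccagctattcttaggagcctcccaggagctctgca

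The capitals in Xirp2 are a GATA match (TGATAG) and a MEF2 match (CTAAAAATAG), which begin at -224 and -74 from the start. Each Synpo2l window also held a GATA match (TGATAG or CTATCA) and a MEF2 match (CTATAATTAG or TTATTTTTAG). Of the 12 windows these 3 were the ones with a MEF2 match. The search also covered 32851 promoter windows of the same length, not the whole annotation, and 3.19% of them held a MEF2 match and 29.8% a GATA match. The window of Ldb3 shown held a CArG box (CCATTTATGG) beginning at -35, a motif found in 1.63% of the 32851 windows. The other Ldb3 window, which is not shown because it overlaps this one, held the same CArG box and a GATA match (AGATAG) beginning at 44, so GATA matches were not limited to Xirp2 and Synpo2l. The window of Des held none of the motifs apart from 2 E-boxes. E-boxes occur in 72.3% of the 32851 windows, MCAT matches in 14.7% and TATA boxes in 13.6%. These matches describe the letters only.

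Adult heart was compared with E12.5 heart to ask how the scaffold differs between the embryo and the mature heart. In adult, 6 of the 10 genes rose, none fell and 4 did not pass, by limma on all genes with Benjamini-Hochberg adjustment at 0.05. Over all 12658 genes tested 71.8% were called, 23.4% higher and 48.4% lower in adult, so a call as such is common here. These are 2965 genes higher and 6123 lower as deposited, against 4043 and 4518 after median-of-ratios scaling, a scaling under which the same number of the 10 genes passed. Xirp2 rose by 7.68 (SE 0.26, adjusted p = 0.00398), a ratio of FPKM of 762. Myot rose by 4.58 (SE 0.44, adjusted p = 0.0101), Nrap by 3.32 (SE 0.20, adjusted p = 0.00582) and Fblim1 by 2.28 (SE 0.09, adjusted p = 0.00419). Desmin rose by 1.4 (SE 0.07, adjusted p = 0.00507) and Actn2 by 1.02 (SE 0.07, adjusted p = 0.00711). Every one of these 6 genes was higher in both adult libraries than in E12.5. In whole tissue, more heart muscle cells and more transcript per cell cannot be told apart. The summed FPKM of the 8 heart muscle markers was 38250 and 38541 in adult against 16846 in E12.5. Of these 8 genes 6 were higher in adult and 2 lower. Myh6 stood at 13.27 and 13.21 in adult against 7.72 in E12.5. The lower genes were Tnnc1, at 10.97 and 10.99 against 11.66, and Actc1, at 12.14 and 12.02 against 12.18. Other marker sums were lower in adult, at 0.52 and 1.31 against 21255 FPKM for red cells and 343 and 256 against 11174 for the atrial list. Of the 4 atrial genes 3 were lower in adult and 1 higher, Sln, at 3.18 and 1.67 against 0.45. Whether this list marks atrial muscle alone at E12.5 was not tested. The epicardial sum was 7.74 and 5.86 against 107, and the smooth muscle sum 241 and 257 against 540. The smooth muscle list was mixed, with 2 of its 5 genes higher in adult and 3 lower. Its gene Myh11 stood at 5.46 and 5.72 in adult against 0.08 in E12.5. The part of these in the differences was not tested.

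The genes that did not pass were Flnc at -1.10 (SE 0.28, adjusted p = 0.0551), Synpo2l at -0.84 (SE 0.32, adjusted p = 0.115), Xirp1 at 0.23 (SE 0.19, adjusted p = 0.354) and Ldb3 at -0.04 (SE 0.13, adjusted p = 0.803). With limma's p-values left unadjusted, 1 of the 10, Flnc, was lower in adult at 0.05. Flnc and Synpo2l were lower in both adult libraries than in E12.5, and the adult replicates differed by 0.50 and 0.58 for these genes. The spread rests on the adult pair, which leaves 1 residual degree of freedom. The single E12.5 library was taken to be as variable. Over all genes tested the median difference was -0.51 as deposited and -0.10 after median-of-ratios scaling, where the median over the 10 genes was 1.21 and 1.71. Under that scaling Flnc stood at -0.60, Synpo2l at -0.34, and Ldb3 turned from -0.04 to 0.47, still without passing. With the library labelled Gata4 KO in place of E12.5, Myot differed by 1.70 and no longer passed (adjusted p = 0.0583), while the other 5 genes that rose passed. A rule of size, a difference of at least 1 on the log2 scale where the higher level reached 5 FPKM, was met by 7 genes, the 6 that rose and Flnc, against 55.9% of genes with 5 FPKM, 17% higher and 38.9% lower in adult.

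**Figure D3:**
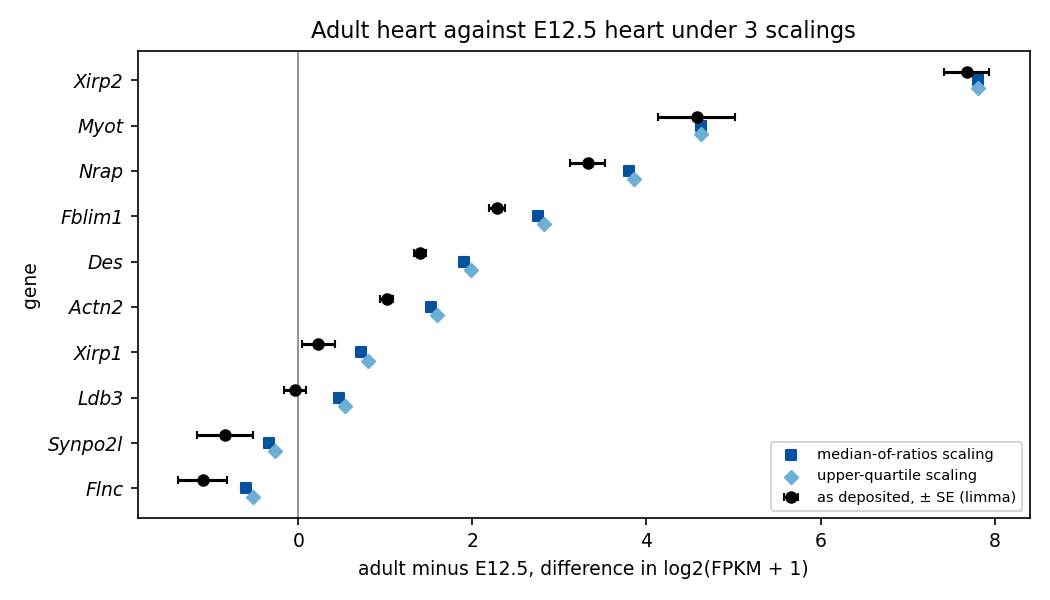
Difference between adult and E12.5 heart for each gene, in log2(FPKM + 1), as deposited with the limma standard error and after 2 other scalings. Xirp2 stands at 7.68 and Flnc at -1.10 as deposited, and Ldb3 lies on either side of 0 depending on the scaling.

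Lists of related genes changed in both directions. Among 24 tested partners of the Z-disc, 11 rose, 9 fell and 4 did not pass by limma, with a median of -0.04 against -0.51 over all genes. Tcap, the titin cap protein, rose by 3.82 (SE 0.27, adjusted p = 0.00687), whereas the PDZ and LIM protein Pdlim7 fell by 4.08 (SE 0.10, adjusted p = 0.00398). Actn1, the non-muscle alpha-actinin, fell by 1.34 (SE 0.09, adjusted p = 0.00647), and Actn2 had 69.0 and 62.8 times its FPKM in adult against 12.2 times in E12.5. Of 11 filamins and filamin partners 5 rose and 5 fell, among them the chaperone cofactor Bag3, higher by 2.85 (SE 0.08, adjusted p = 0.00398), and Vasp, lower by 3.87 (SE 0.11, adjusted p = 0.00398). Flna, the ubiquitous filamin, fell by 1.18 (SE 0.16, adjusted p = 0.0178).

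Of 20 costamere and integrin adhesion genes 8 rose, led by the muscle integrin chain Itga7 at 4.02 (SE 0.11, adjusted p = 0.00398), 8 fell and 4 did not pass. Among 13 intermediate filament genes and linkers 6 rose and 4 fell. Vim, vimentin, fell by 2.27 (SE 0.23, adjusted p = 0.0111), and desmin had 6.96 and 5.36 times its FPKM in adult but 0.479 times in E12.5. The intercalated disc partners gave 7 that rose and 5 that fell of 13, with Ctnnd1, the p120 catenin, lower by 1.74 (SE 0.09, adjusted p = 0.00517). Of 14 thin filament genes 5 rose and 6 fell, with the actin nucleator Lmod2 higher by 3.89 (SE 0.07, adjusted p = 0.00398). Synpo2, the closest relative of Synpo2l on these lists, rose by 1.93 (SE 0.08, adjusted p = 0.00417), and the Synpo2l to Synpo2 ratio was 1.98 and 1.34 in adult against 12.4 in E12.5.

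The effect of load on the scaffold was addressed by banding against sham, with 1 library each and hence no replicate check and no p-value. In the banded heart 8 of the 10 genes stood higher and 2 lower. By the rule of size 4 were higher (Xirp2, Synpo2l, Des and Flnc) and 1 lower (Fblim1), where 2.51% of genes with at least 5 FPKM were higher and 0.998% lower, 3.5% in all. Ratios of FPKM are given with exact 95% intervals from the recovered reads, which cover counting error only. Xirp2 stood at 69095 reads in banding and 11624 in sham, a ratio of 5.13 (5.03 to 5.23). Synpo2l had 3557 against 715 reads and a ratio of 4.29 (3.96 to 4.66). The ratio was 2.55 (2.51 to 2.60) for desmin, 2.42 (2.26 to 2.58) for Flnc and 2.08 (1.89 to 2.29) for Xirp1, which at 0.98 lay just under the rule. Myot had a ratio of 3.58 (2.43 to 5.41) on 137 against 33 reads, but at 4.43 FPKM in banding it was too low for the rule.

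The other 4 genes had smaller ratios or ran the other way. Nrap had a banding to sham ratio of 1.82 (1.75 to 1.89), Actn2 of 1.29 (1.25 to 1.33) and Ldb3 of 0.955 (0.899 to 1.01). Fblim1 went the other way, with 373 reads in banding and 1107 in sham and a level 3.44 times higher in sham (3.06 to 3.88). Fermt2, the kindlin that migfilin binds, stood at 5.38 in banding and 5.25 in sham, so that Fblim1 had 0.213 times the FPKM of Fermt2 in banding and 0.798 times in sham. The median difference over the 10 genes was 1.09 against 0.03 over all genes tested, and it was 1.06 after median-of-ratios scaling. The summed FPKM of 7 fibroblast markers was 683 in banding and 258 in sham, and that of the 8 heart muscle markers 24154 and 27085; their part in these differences was not tested. Skeletal muscle is a tissue that also expresses Xirp1, Xirp2, Nrap, Flnc, Myot and Des. Its 12 markers summed to 22.4 FPKM in banding and 7.79 in sham. Of the 12, 10 were under 1 FPKM in each library, and Myf6 was listed at 0 in both. Mybpc2 made up most of both sums, at 4.40 in banding (1021 reads) and 2.62 in sham (226 reads).

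The only measure of how far these genes vary between libraries of the same label is the adult pair. None of the 10 differed between the adult replicates by the rule of size, which 0.480% of genes met. Still, 9 of the 10 were higher in replicate 1, with a median of 0.34 against -0.03 over all genes. Myot had a ratio of 1.77 (1.59 to 1.97), Synpo2l of 1.5 (1.42 to 1.59), Flnc of 1.44 (1.36 to 1.51) and Xirp2 of 1.38 (1.36 to 1.39). Desmin at 0.972 (0.954 to 0.990) and Actn2 at 1.03 (1.02 to 1.05) were nearly level. The adult ratios of Myot, Synpo2l, Flnc and Xirp2 all exceed the banding to sham ratio of Actn2. Gene by gene, the banding to sham ratio was the larger for Xirp2, Synpo2l, Flnc, Xirp1, Nrap, Myot, Actn2 and desmin, whereas Ldb3 differed more between the adult replicates, at 1.15 (1.11 to 1.19), than between banding and sham. The summed atrial markers (Myl7, Myl4, Sln and Nppa) were 343 FPKM in replicate 1 and 256 in replicate 2 and those of fibroblasts 107 and 134; their part was not tested. Across the 10 genes, which share their libraries within each difference, the adult replicate difference and the banding to sham difference had a Spearman's rho of 0.49 and a Pearson's r of 0.51.

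**Figure D4:**
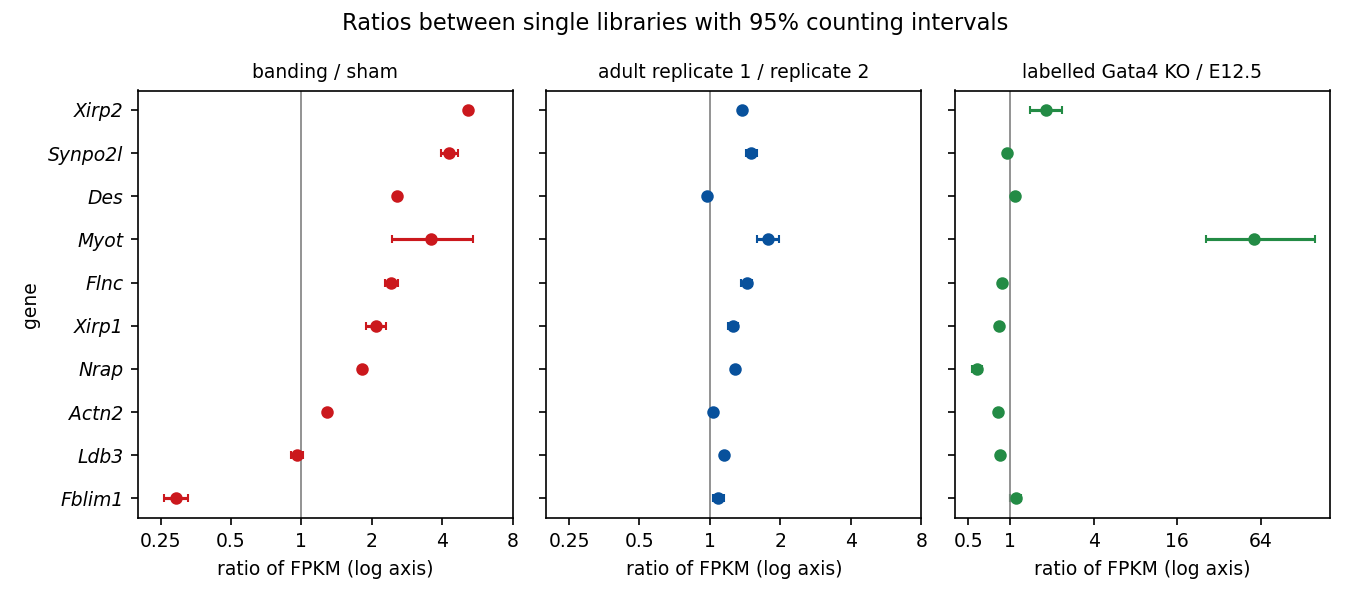
Ratios of FPKM between single libraries on log axes, with exact 95% counting intervals, for banding over sham, adult replicate 1 over replicate 2 and the library labelled Gata4 KO over E12.5. Banding over sham runs from 0.291 for Fblim1 to 5.13 for Xirp2, the adult pair from 0.972 to 1.77, and Myot stands at 56.6 in the third panel, whose axis is longer.

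Among related genes, 2 of 18 Z-disc partners with at least 5 FPKM were higher in banding by size, Fhl1, a LIM domain protein, at 4.64 against 2.67, and Pdlim5, a PDZ and LIM adaptor, at 6.46 against 5.40. Fhl2, another LIM domain protein, stood lower at 5.61 against 6.43 without meeting the rule. Of the 11 filamins and partners 3 were higher by size, and all 3 are small heat shock proteins: Hspb1 at 6.66 against 5.01, Hspb8 at 6.18 against 5.0 and Hspb7 at 9.31 against 8.26. The list had a median of 0.56 against 0.03 over all genes. Cryab, a chaperone of desmin, was the 1 of 7 intermediate filament genes higher by size, at 9.21 against 7.89, and Vim stood at 7.46 against 6.67. Enah, an actin regulator of adhesions and the intercalated disc, was the 1 of 19 costamere genes higher by size, at 6.0 against 4.36. None of 10 intercalated disc partners met the rule as deposited, and 10 of 13 at 1 FPKM or more lay under their sham level (median -0.20). Dsg2 came closest at -0.956, and it reached -1.05 after median-of-ratios and -1.03 after upper-quartile scaling. The 1 thin filament gene of 14 to meet the rule was the skeletal actin Acta1, at 9.59 against 6.48.

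The library labelled Gata4 KO was set beside E12.5 to ask which genes of the scaffold depend on Gata4 in the embryonic heart, again with 1 library each. Here 1 of the 10 genes met the rule of size, against 2.11% of genes with at least 5 FPKM. Myot had 287 reads in the library labelled Gata4 KO and 6 in E12.5, a ratio of 56.6 (25.7 to 155). After upper-quartile scaling its level fell under 5 FPKM and no gene met the rule. Nrap was lower, with 835 against 1707 reads and a level 1.73 times higher in E12.5 (1.59 to 1.88). Xirp2 was low in both libraries, at a ratio of 1.81 (1.39 to 2.38).

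The remaining genes lay within a narrow band in the library labelled Gata4 KO. Ratios to E12.5 were 0.828 for Xirp1, 0.813 for Actn2, 0.842 for Ldb3, 0.871 for Flnc, 0.952 for Synpo2l, 1.09 for desmin and 1.10 for Fblim1, and only the interval of Fblim1 (0.996 to 1.21) included 1. The summed heart muscle markers stood at 11677 FPKM in the labelled library and 16846 in E12.5, those of fibroblasts at 252 and 122, of smooth muscle at 1114 and 540 and of the red cell list at 64667 and 21255; their part in these differences was not tested. The skeletal muscle markers summed to 18.8 FPKM in the labelled library and 20.1 in E12.5, and 1 of the 12, Mybpc1, had 115 reads in the labelled library and 5 in E12.5; their part in the Myot difference was not tested. Of the 6 lists of related genes, 2 had members past the rule, all higher. These were Krt18, a simple epithelial keratin, in the intermediate filament list (3.88 against 2.85) and, among thin filament genes, Acta1 (7.71 against 6.54) and the smooth muscle actin Acta2 (9.83 against 8.56). Krt18 fell short of the rule after scaling, going from 1.03 to 0.969 (median-of-ratios) and 0.996 (upper quartile). Acta1 differed by 1.18 here and by 1.17 between the adult replicates, where it also met the rule. No member of the Z-disc, filamin, costamere and intercalated disc lists met it.

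Sham heart was set beside adult heart as a second postnatal reference. All 10 genes were higher in adult by limma, from 0.47 (SE 0.09, adjusted p = 0.0195) for desmin to 3.59 (SE 0.38, adjusted p = 0.00622) for Myot, where 44.8% of 11582 genes tested were higher and 58.5% called either way. By the rule of size 9 were higher, desmin being the exception, against 43.8% of genes with 5 FPKM, 38.6% higher and 5.24% lower. The heart muscle markers summed to 38250 and 38541 FPKM in adult and 27085 in sham and the fibroblast markers to 107 and 134 against 258. The fibroblast list was mixed, with 3 of its 7 genes higher in adult and 4 lower. Dcn stood at 6.05 and 6.35 in adult against 7.72 in sham, and Postn at 4.13 and 4.45 against 2.02. The atrial list was mixed, with a sum of 343 and 256 FPKM in adult against 312 in sham. Myl4 stood at 6.72 and 6.09 against 1.61, Myl7 at 4.65 and 3.27 against 0.64 and Sln at 3.18 and 1.67 against 0. Nppa went the other way, at 7.70 and 7.49 against 8.28. The part of these in the differences was not tested. Scaling moved this comparison, as the median over all genes was 0.44 as deposited and 0.05 after median-of-ratios scaling. Over all genes 5191 were higher and 1581 lower in adult as deposited, and 3389 and 2996 under that scaling. There 8 of the 10 passed, Flnc at 0.65 did not (adjusted p = 0.113), and desmin stood at -0.041, having turned. By size 6 of the 10 were higher under that scaling, with Nrap, Flnc and Fblim1 under 1. Over all genes 2456 then met the rule in either direction, against 2918 as deposited. With no filter on low genes 4 of the 10 passed by limma, and 4597 of the 17237 genes tested. Actn2 differed by 2.03 as deposited and 1.52 after that scaling, Xirp1 by 2.21 and 1.74, and Xirp2 by 1.79 and 1.28. All 13 intercalated disc partners were likewise higher in adult as deposited, with a median of 1.75 (1.38 after median-of-ratios scaling), among them the gap junction gene Gja1 at 2.56 (SE 0.10, adjusted p = 0.00269) and N-cadherin, Cdh2, at 2.55 (SE 0.08, adjusted p = 0.00269). The adult to sham and banding to sham differences share the sham library.

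Sham and E12.5 were compared last, 1 library against 1, as a view of the mature heart that does not rest on the adult pair. By size 3 of the 10 genes were higher in sham and 5 lower, where 68.4% of genes with 5 FPKM met the rule, 10.2% higher and 58.2% lower, and the median over all genes was -0.95, or -0.18 after median-of-ratios scaling. Xirp2 was higher in sham by 5.89 (6.52 after that scaling), Nrap by 2.03 (3.01) and Fblim1 by 1.05 (2.02). Synpo2l was lower by 2.55 (1.56), Flnc by 2.22 (1.25), Xirp1 by 1.98 (1.02) and Ldb3 by 1.69 (0.68). Actn2 was lower by 1.02 as deposited and turned after scaling, to 0.0013 with median-of-ratios and 0.18 with upper-quartile scaling. Desmin was higher by 0.93, short of the rule as deposited and past it at 1.95 after scaling, and Myot by 0.99 (1.34) on 33 against 6 reads. Xirp2, Nrap, Fblim1, desmin and Myot thus stood above E12.5 in the adult pair and in sham, and Flnc and Synpo2l below it in both, though Flnc and Synpo2l did not pass the adult test; these comparisons share the E12.5 library.

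Likeness of pattern was measured as the root mean square difference between genes over the 6 libraries, each gene centred on its own mean of log2(FPKM + 1), so that 0 is an identical pattern. Within the 10 genes the closest pair was Flnc and Synpo2l at 0.26, followed by Xirp1 and Ldb3 at 0.33, and the farthest was Xirp2 and Flnc at 4.02, with the Xin paralogs at 3.69. Among 8596 other genes, Synpo2l was closest to Fhl1 at 0.20 and Ctgf at 0.31, Xirp2 to Ankrd23 at 0.45 and Lrrc2 at 0.66, and Nrap to Rcan2 at 0.24 and Timm8a1 at 0.25. Desmin was closest to Kbtbd5 at 0.13 and Hbegf at 0.14, Flnc to Golga7 at 0.20 and Pfkp at 0.22, and Xirp1 to Ppp1r3c at 0.14 and Fam103a1 at 0.15. Fblim1 was closest to Pla2g5 at 0.24 and Psme4 at 0.28, and Myot, with the loosest neighbours, to Fgf1 at 0.73 and Pcp4l1 at 0.77. Actn2 was closest to Pmpcb and Clock, both at 0.07, and Ldb3 to Pip5k1b at 0.07.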

How the data were processed

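Poly(A) RNA-seq was analysed in 6 heart libraries of 5 groups; the other 39 samples, chromatin libraries, were not analysed here. The values deposited by the authors are log2(FPKM + 1) with a gene symbol and no coordinates. Converted back from log2, 100% of 98043 values above 0 were whole reads to within 0.001 of a read. Per the submitters' processing notes the series used CASAVA 1.8.2, TopHat 1.4, HTSeq 0.5.3, BWA 0.5.9, MACS 1.4 and build mm9; which of them made these files is not stated there. Strand use in counting is not stated.

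Groups come from the sample titles. Adult was compared with E12.5 and with sham with limma (version 3.58.1, R version 4.3.3) and its intensity trend, on every gene that reached 1 FPKM in any fitted library. Simulated reads were also fitted, with the same spread set for all genes (prior degrees of freedom 6.66 and 26.7, against 1.53 and 2.55 in the libraries). That run does not show how the fit behaves at the spread of these libraries. Between single libraries the rule of size was used, with exact conditional binomial 95% intervals (Python 3.11.15, scipy 1.17.1). Members, lists, named-gene rules and the within-library ratios were chosen with earlier results of these data known. Named list genes are up to 3 with the largest difference at 5 FPKM or more per list and comparison, apart from the counterparts Actn1, Flna, Synpo2, Fermt2 and Vim, named as partners in a ratio, and of the pathway lists all 96 entries matched. For each member the 2 genes most like it in pattern are named, except that 1 of those for Ldb3 is not reported here.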

Additional observations from a re-analysis of the deposited data

How the results depend on the processing

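Adult versus E12.5 kept 5 to 7 genes by limma under every alternative run (median-of-ratios and upper-quartile scaling, a pseudocount of 0.1 FPKM, no filter, a filter of 5 FPKM, no trend, all 6 libraries in 1 fit, and, added after the data were seen, the library labelled Gata4 KO in place of E12.5). Flnc passed with the 5 FPKM filter (adjusted p = 0.0242). Ldb3, which passed nowhere, turned from -0.04 to 0.47 (median-of-ratios), 0.54 (upper quartile) and 0.21 (labelled library). By size the count was 6 to 7 genes with either adult library left out, and all genes 4912 to 4952. The genes behind that count changed. Without adult replicate 1, Actn2 fell just short at 0.991 and Synpo2l met the rule at -1.13. Without adult replicate 2, Flnc fell short at -0.847. For adult versus sham the limma count went from 10 to 4 without a filter and to 7 with upper-quartile scaling. Over all genes it went from 6772 of 11582 to 4597 of 17237 without a filter, and to 6442 with that scaling. Without a filter the prior degrees of freedom fell from 2.55 to 0.974. By size the count was 6 rather than 9 under median-of-ratios and under upper-quartile scaling, and over all genes 2456 rather than 2918 under each. With either adult library left out the count by size was 8 to 9, and all genes 2963 each way. Desmin turned to -0.041 (median-of-ratios) and -0.15 (upper quartile). In sham versus E12.5, Actn2 turned to 0.0013 and 0.18 under the same scalings. Banding versus sham kept 5 to 7 genes by size, and all genes went from 179 to 307 at 1 FPKM and 599 at 1.5-fold. In the library labelled Gata4 KO versus E12.5 the count of 1 became 0 with upper-quartile scaling and 2 at 1.5-fold, and all genes went from 173 to 271 at 1 FPKM and 675 at 1.5-fold. Limma counts without an adult library could not be fitted, as no residual degrees of freedom remain. No paired analysis was possible because the groups compared share no replicate numbers. The cause of these changes was not tested. Depth limits Myot in E12.5 (6 reads) and sham (33 reads).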
